A study of Mus musculus with 20 samples.

Results

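The insulin-like growth factor (IGF) axis was followed through 10 of the 27911 genes in the deposited table. They were the ligand Igf1, the receptors Igf1r and Insr, the adaptor Irs1, the binding proteins Igfbp2, Igfbp3, Igfbp4, Igfbp5 and Igfbp6, and the protease Pappa. The members were taken by gene symbol, a rule that uses no measured value, but the list was chosen with earlier results of these data known. All 10 were matched and all 10 passed the filter on low counts, which kept 15467 genes. Polyadenylated RNA came from ATDC5, a line of mouse cells able to turn into chondrocyte-like cells in culture. The 3 Kmt2d+/+ clones carried an intact Kmt2d gene, and the 2 Kmt2d-/- clones had lost the catalytic SET domain of this histone methyltransferase from both alleles. Kmt2d+/+ clones 1, 2 and 3 bear the names 10-5, 10-7 and 10-8, and Kmt2d-/- clones 1 and 2 the names 10-7 and 96-9. The number 10-7 occurs in both genotypes, and whether those lines are related is not stated. Each clone is a separate line grown from a single clone, so the mutant group rests on 2 lines. Every clone was harvested at day 0, undifferentiated, and again at day 7, after 7 days of chondrogenic culture. The differentiation medium of both genotypes held an insulin, transferrin and selenium supplement, ascorbic acid and beta-glycerophosphate, while the recipe given for the maintenance medium lists no insulin. Serum was part of both media. The 4 groups of 3, 3, 2 and 2 clones gave 10 libraries.

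IGF1 and IGF2 are small secreted hormones that act through the IGF1 receptor, a tyrosine kinase close to the insulin receptor, and IRS1 passes the signal to PI3 kinase and AKT. Outside the cell, binding proteins hold the ligands and set how much reaches the receptor, and pappalysin, the product of Pappa, cuts IGFBP4 and IGFBP5 and so frees the bound hormone. In the growth plate this axis is known to drive chondrocyte growth and bone lengthening, and insulin is the standard inducer of cartilage formation in ATDC5 cells.

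Library depth was 35792773 to 66237188 counts. Kmt2d itself stood at 185 to 211 CPM (counts scaled to a fixed total per library, after TMM scaling of its size) in the Kmt2d+/+ clones and 148 to 205 CPM in the Kmt2d-/- clones at day 0, and at 173 to 207 and 113 to 175 CPM at day 7. A gene-level count is no measure of the deleted domain and checks no label. The labels call the day 7 cells chondrocytes. The 8 chondrocyte markers together stood at 45.1 to 404 CPM in Kmt2d+/+ and 1958 to 6160 CPM in Kmt2d-/- clones at day 0, and at 583 to 1011 and 26566 to 30616 CPM at day 7. The summed markers of skeletal muscle reached at most 0.812 CPM and those of immune cells at most 1.35 CPM in any library, and Myog and Ckm had 0 counts in all of them. Endothelial markers summed to 4.88 to 8.74 CPM, adipocyte markers to 9.65 to 35.7, tendon and fibroblast markers to 39.9 to 97.0 and osteoblast markers to 274 to 853 CPM. The chondrocyte sum therefore moves with both genotype and day beside every result here. In Kmt2d-/- clones 1 and 2 it was mostly Col2a1 (2533 and 806 CPM at day 0) and Col11a1 (3332 and 958 CPM). Col2a1 alone stood at 20471.1 and 24450.5 CPM in these clones at day 7. Acan, Matn3 and Comp overlapped between the genotypes at day 0. Other sums move with day: the hypertrophic one from 127 to 507 up to 726 to 1170 CPM in Kmt2d+/+ and from 161 to 291 up to 859 to 875 CPM in Kmt2d-/- clones, and the osteoblast one from 274 to 333 up to 537 to 853 and from 422 to 480 up to 564 to 774 CPM. In Kmt2d+/+ clones the tendon and fibroblast sum was 42.0 to 49.3 CPM at day 0 and 80.4 to 97.0 CPM at day 7. Mmp13, of the hypertrophic list, reached at most 0.573 CPM in any library. The part of these markers in the results was not tested.

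Igfbp2 and Igfbp5 are neighbours. On GRCm38, Igfbp2 (ENSMUSG00000039323) lies on chromosome 1 from 72824503 to 72852474 on the plus strand, and Igfbp5 (ENSMUSG00000026185) from 72857932 to 72874884 on the minus strand, so that the genes end towards each other with 5457 bases between them. Igfbp4 (ENSMUSG00000017493) lies on chromosome 11 from 99041244 to 99054392, plus strand, and Igf1r (ENSMUSG00000005533) on chromosome 7 from 67952827 to 68233668, plus strand. The 250 bases before a RefSeq start of these 4 genes are given. Igfbp2, Igfbp4 and Igf1r are the members with a passing difference and a matched promoter, and Igfbp5 is the neighbour of Igfbp2. The sequences come from RefSeq (GRCm38.p6) and run 5′ to 3′ on the strand of the gene. Only for Igfbp4 does the window adjoin the gene bounds above. Those of Igfbp2 and Igf1r end before these bounds, that of Igf1r at 67952256, and that of Igfbp5 reaches into them. Capitals mark exact matches, on either strand, to 7 core motifs: the TATA box (TATAAA), the box known by its letters CCAAT, the GC box (GGGCGG), and the cores bound by SOX factors (ACAATG), by FOXO factors (TGTTTA), by RUNX factors (TGTGGT) and by AP-1 (TGANTCA). No motif contains another.
Igfbp2, chr1:72824230-72824479, plus strand: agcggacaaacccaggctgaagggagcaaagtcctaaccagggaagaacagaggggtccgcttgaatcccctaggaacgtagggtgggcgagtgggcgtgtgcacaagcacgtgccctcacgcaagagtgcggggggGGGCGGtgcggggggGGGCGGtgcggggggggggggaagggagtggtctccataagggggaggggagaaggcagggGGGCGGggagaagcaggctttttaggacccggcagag
Igfbp5, chr1:72874866-72875115, minus strand: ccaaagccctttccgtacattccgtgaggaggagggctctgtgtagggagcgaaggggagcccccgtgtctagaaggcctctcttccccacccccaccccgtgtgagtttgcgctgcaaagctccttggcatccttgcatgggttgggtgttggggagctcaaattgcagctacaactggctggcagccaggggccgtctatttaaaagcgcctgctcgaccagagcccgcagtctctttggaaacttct
Igfbp4, chr11:99040994-99041243, plus strand: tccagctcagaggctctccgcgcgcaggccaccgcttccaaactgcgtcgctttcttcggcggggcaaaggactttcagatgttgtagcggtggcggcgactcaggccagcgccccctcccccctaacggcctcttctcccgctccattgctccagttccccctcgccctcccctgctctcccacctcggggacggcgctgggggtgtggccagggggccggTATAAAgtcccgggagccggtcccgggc
Igf1r, chr7:67952007-67952256, plus strand: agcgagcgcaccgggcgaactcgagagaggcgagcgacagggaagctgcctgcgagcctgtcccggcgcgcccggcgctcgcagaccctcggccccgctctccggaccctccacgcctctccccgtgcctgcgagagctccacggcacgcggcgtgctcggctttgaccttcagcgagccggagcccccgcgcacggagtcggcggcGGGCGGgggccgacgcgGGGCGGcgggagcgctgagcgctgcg
Promoter sequence was matched for 8 of the 10 members, all but Insr and Pappa. Counted from the RefSeq start, Igfbp2 held 3 GC boxes, at 113, 98 and 37 bases before it, and Igf1r held 2, at 43 and 26 bases. Igfbp4 held a TATA box 28 bases before its start. Of all 32536 promoter windows of this length, 33.0% held a GC box, 12.3% the TATA box, 33.8% the CCAAT letters, 10.5% the SOX, 12.02% the FOXO, 13.96% the RUNX and 6.73% the AP-1 core. None of the 7 motifs was found in the window of Igfbp5. CG dinucleotides numbered 42 in Igf1r, 22 in Igfbp4, 14 in Igfbp2 and 10 in Igfbp5, beside a median of 6 over all windows. The window of Igfbp5 could therefore share no motif searched with that of its neighbour Igfbp2, whatever the latter held. A match is a string of letters, not a bound site.

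Genotypes were compared at each day (Kmt2d-/- against Kmt2d+/+), days within each genotype (day 7 against day 0), and the interaction tested whether the 2 day changes differ. Comparisons that share a group are not independent of each other. Throughout, a gene passed when its Benjamini-Hochberg adjusted p in edgeR's quasi-likelihood test over all 15467 genes was under 0.05, and log2 fold changes are given ± their standard error (SE). In bulk RNA, fewer cells of a type and less RNA per cell cannot be told apart.

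At day 0, 1 of the 10 members, Igfbp2, passed as higher in Kmt2d-/- clones, beside 2.15% of all genes in either direction and 1.17% higher. At day 7 Igfbp2 was again the 1 member that passed, beside 1.87% of all genes and 0.905% higher. From day 0 to day 7 the Kmt2d+/+ clones had 2 members that passed, Igfbp4 up (3.05% of all genes rose) and Pappa down (2.04% fell), beside 5.08% of all genes in either direction. The Kmt2d-/- clones had 3, Igfbp4 up (0.672% of all genes rose) and Igf1r and Pappa down (0.595% fell), beside 1.27%. The median log2 fold change of the 10 members was 0.73 and 0.28 for genotype at days 0 and 7, 0.77 for day in Kmt2d+/+ and -0.32 for day in Kmt2d-/- clones. The same median over all genes was 0.01, -0.02, 0.03 and 0.00. A clone keeps its identity between the days, and with a term for each clone 7 members passed for day in Kmt2d+/+ clones, beside 18% of all genes, and 4 in Kmt2d-/- clones, beside 5.57%. Calls made only with that term are named as such below.

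**Figure D1:**
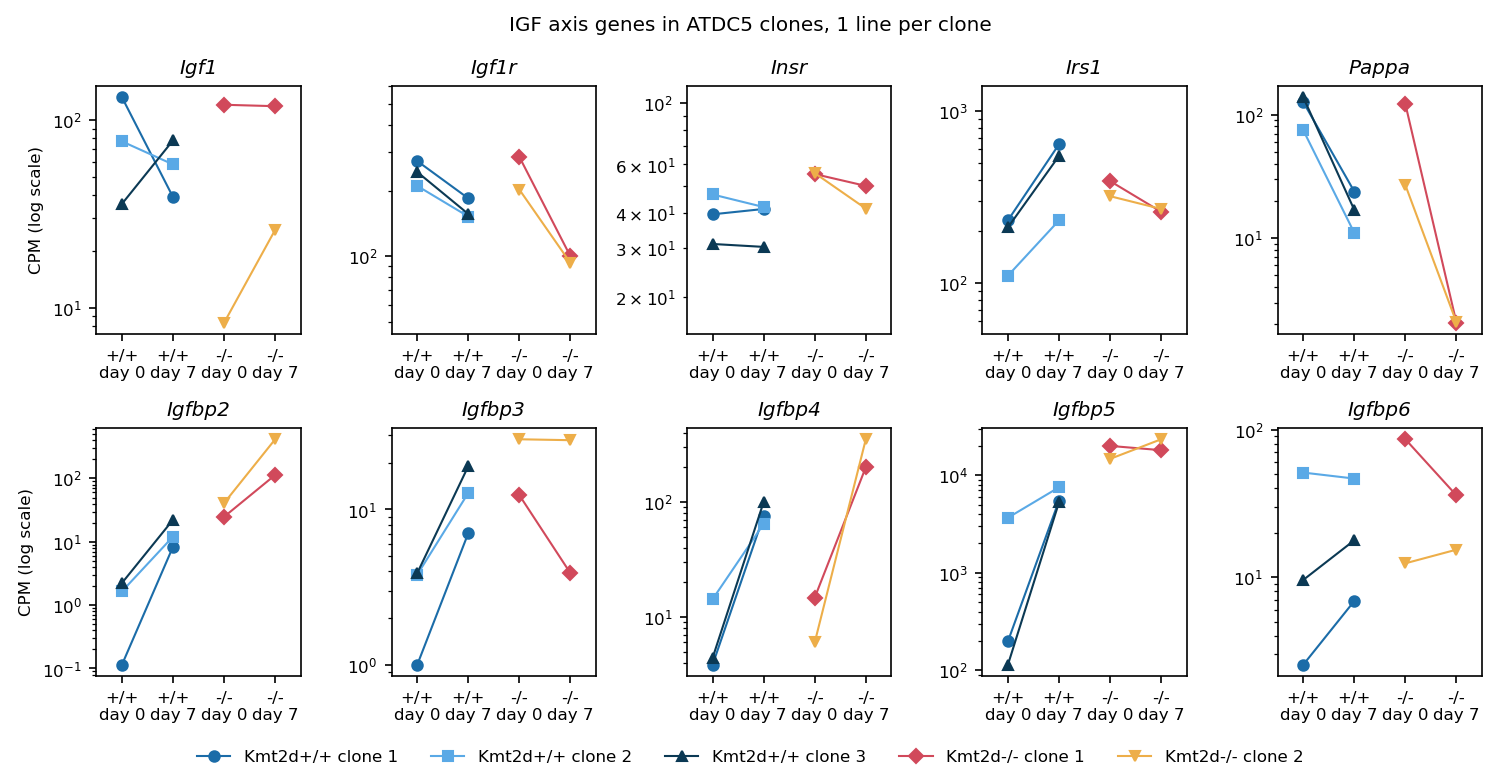
Levels of the 10 IGF axis genes in each clone (CPM, log axis), with a line joining day 0 to day 7 of the same clone, Kmt2d+/+ on the left and Kmt2d-/- on the right of each panel. Igfbp2 and Igfbp5 sit higher in both Kmt2d-/- clones at both days, Igfbp4 climbs and Pappa drops in all 5 clones, and Igf1 and Igfbp6 are scattered between clones.

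Igf1, the growth factor itself, varied widely between clones of a group. Kmt2d+/+ clones 1, 2 and 3 had 133, 77.2 and 35.8 CPM at day 0, then 38.9, 58.1 and 78.1 CPM by day 7. For Kmt2d-/- clones 1 and 2 Igf1 stood at 121 and 8.30 CPM at day 0 and at 119 and 26.0 CPM at day 7. The groups overlapped in every comparison. Within the Kmt2d-/- group at day 0 the higher clone had 14.6 times the level of the lower. The day change was downward in Kmt2d+/+ clones 1 and 2 and upward in clone 3, and no comparison of Igf1 passed (edgeR adjusted p = 0.884 and 0.903 for genotype, 0.781 and 0.973 for day).

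The other IGF ligand, Igf2, was close to undetected in 2 of the 3 Kmt2d+/+ clones and abundant in both Kmt2d-/- clones. At day 0 Igf2 stood at 0.0573, 9.54 and 0.169 CPM across Kmt2d+/+ clones 1, 2 and 3, from 2, 411 and 8 counts, and at 433 and 389 CPM in Kmt2d-/- clones 1 and 2. By day 7 the values were 1.10, 33.1 and 1.45 CPM against 2968 and 820 CPM. The genotype groups did not overlap at either day, but Kmt2d+/+ clone 2 lay far above clones 1 and 3. The difference did not pass at day 0 (log2 fold change 6.97 ± 2.05, edgeR adjusted p = 0.103) or at day 7 (7.31 ± 2.07, edgeR adjusted p = 0.100). Without Kmt2d+/+ clone 2 the values were 11.71 (edgeR adjusted p = 0.00840) and 10.53 (edgeR adjusted p = 0.00883). Of all genes, 6% and 1.79% passed in that fit. Igf2 did not pass without Kmt2d+/+ clone 1 (edgeR adjusted p = 0.208 at day 0 and 0.151 at day 7) or clone 3 (0.314 and 0.304). Log2 fold changes were 6.90 and 6.09 without Kmt2d-/- clone 1, and 7.05 and 7.96 without Kmt2d-/- clone 2. With limma-voom Igf2 passed at day 7 (8.68, adjusted p = 0.0146), and with the clone as a random effect at both days (adjusted p = 0.0484 and 0.0102). The day change in Kmt2d+/+ clones was 1.86 (edgeR adjusted p = 0.525) and passed with a term for each clone (2.37, edgeR adjusted p = 0.0306). DESeq2 returned no adjusted p for the genotype differences of Igf2. The insulin genes Ins1 and Ins2 had 0 counts in all 10 libraries.

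Igf1r, the receptor through which both IGFs act, fell by day 7 in the Kmt2d-/- clones. It stood at 273, 210 and 243 CPM across Kmt2d+/+ clones 1, 2 and 3 and at 285 and 202 CPM in Kmt2d-/- clones 1 and 2 at day 0. By day 7 the levels of Igf1r were 184, 152 and 156 CPM in Kmt2d+/+ and 99.9 and 93.2 CPM in Kmt2d-/- clones. All 5 clones were lower at day 7 than at day 0, and at day 7 both mutant clones lay below all 3 wild-type clones. In Kmt2d-/- clones the change was 2.52-fold (log2 fold change -1.34 ± 0.21, edgeR adjusted p = 0.0318). In Kmt2d+/+ clones it was -0.56 ± 0.17 (edgeR adjusted p = 0.0879), and it passed with a term for each clone (-0.56 ± 0.11, edgeR adjusted p = 0.0284). The genotype difference was 0.01 ± 0.19 at day 0 and -0.77 ± 0.20 (edgeR adjusted p = 0.0812) at day 7, where DESeq2 called it (adjusted p = 0.00928). The interaction of Igf1r was -0.77 ± 0.27 (edgeR adjusted p = 1.00). The call in Kmt2d-/- clones was lost without Kmt2d+/+ clone 1 (edgeR adjusted p = 0.0588) or clone 3 (0.120), and without Kmt2d-/- clone 1 (0.346) or clone 2 (0.131).

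Insr, the insulin receptor, varied little. Its levels were 39.7, 46.8 and 31.0 CPM in Kmt2d+/+ and 55.4 and 55.9 CPM in Kmt2d-/- clones at day 0, and 41.5, 42.1 and 30.3 CPM against 50.2 and 41.6 CPM at day 7. Both mutant clones were above all wild-type clones at day 0, by a log2 fold change of 0.51 ± 0.22 (edgeR adjusted p = 0.231). At day 7 the groups overlapped (0.27 ± 0.22, edgeR adjusted p = 0.536). The day changes of Insr were -0.04 ± 0.19 in Kmt2d+/+ and -0.28 ± 0.24 in Kmt2d-/- clones, and neither passed.

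Irs1, the adaptor that couples both receptors to PI3 kinase, took opposite directions over the 7 days in the 2 genotypes. In Kmt2d+/+ clones 1, 2 and 3 Irs1 went from 232, 111 and 211 CPM at day 0 to 643, 232 and 550 CPM at day 7. Kmt2d-/- clones 1 and 2 went from 393 and 321 CPM to 260 and 271 CPM. Every wild-type clone was thus higher and every mutant clone lower at day 7, a pattern that 2.75% of all genes share. The day change was 1.36 ± 0.38 (edgeR adjusted p = 0.0719) in Kmt2d+/+ clones and passed with a term for each clone (1.31 ± 0.13, edgeR adjusted p = 0.00837). The Kmt2d-/- change was -0.43 ± 0.46 (edgeR adjusted p = 0.753). The test of the difference between these day changes did not pass (-1.79 ± 0.60, edgeR adjusted p = 1.00). Without Kmt2d+/+ clone 2, which had the lowest Irs1 of its group at both days, the wild-type day change passed (1.43, edgeR adjusted p = 0.0171). A lower level in Kmt2d-/- clones at day 7 then passed too (-1.17, edgeR adjusted p = 0.0329 beside 0.324 with all clones), in 1 of 15 alternatives. In that fit 5.68% of all genes passed for day in Kmt2d+/+ clones and 1.79% for genotype at day 7.

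Igfbp2 encodes a binding protein with affinity for both IGFs, and it was the 1 member whose genotype difference passed. At day 0 Igfbp2 stood at 0.115, 1.65 and 2.23 CPM across Kmt2d+/+ clones 1, 2 and 3, from 4, 71 and 106 counts, and at 24.8 and 40.9 CPM in Kmt2d-/- clones 1 and 2. At day 7 the levels were 8.36, 12.1 and 22.3 CPM against 113 and 415 CPM. The groups were apart at both days, and the lowest mutant value at day 0 exceeded the highest wild-type value at day 7. The difference was 24.2-fold at day 0 (log2 fold change 4.59 ± 0.90, edgeR adjusted p = 0.0409) and 18.6-fold at day 7 (4.21 ± 0.86, edgeR adjusted p = 0.0482). Igfbp2 was also higher at day 7 than at day 0 in all 5 clones. That change was 3.39 ± 0.83 (edgeR adjusted p = 0.0506) in Kmt2d+/+ and 3.01 ± 0.96 (edgeR adjusted p = 0.178) in Kmt2d-/- clones, and with a term for each clone it passed in both (3.60 ± 0.50, edgeR adjusted p = 0.0133, and 2.77 ± 0.54, edgeR adjusted p = 0.0440). Leaving out any 1 of the 5 clones ended both genotype calls, with log2 fold changes of 4.08 to 5.16 (edgeR adjusted p = 0.0612 to 0.190) at day 0 and 2.99 to 4.86 (0.0647 to 0.226) at day 7. The day 0 call of Igfbp2 was also lost in limma-voom (adjusted p = 0.0666), also with the clone as a random effect (0.0640), and the day 7 call with upper-quartile scaling (edgeR adjusted p = 0.0508). Among the left-out clones the extremes at day 0 came without Kmt2d+/+ clones 1 and 3, and those at day 7 without Kmt2d-/- clones 2 and 1.

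Igfbp3, the main carrier of IGFs in blood, was low throughout. Levels were 1.00, 3.81 and 3.90 CPM in Kmt2d+/+ and at 12.3 and 28.3 CPM in Kmt2d-/- clones at day 0. By day 7 the values were 7.06, 12.8 and 19.0 CPM and 3.89 and 27.9 CPM. The mutant clones lay above the wild-type clones at day 0, and at day 7 the mutant values enclosed the wild-type ones. The day 0 difference of Igfbp3 was 2.80 ± 0.84 (edgeR adjusted p = 0.110). The day change was 2.15 ± 0.78 (edgeR adjusted p = 0.132) in Kmt2d+/+ clones, which passed with a term for each clone (2.25 ± 0.37, edgeR adjusted p = 0.0179), and -0.35 ± 0.91 (edgeR adjusted p = 0.914) in Kmt2d-/- clones. The interaction was -2.51 ± 1.20 (edgeR adjusted p = 1.00).

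Igfbp4, whose protein restrains IGF action until a protease cuts it, rose over the 7 days in both genotypes. It stood at 3.84, 14.3 and 4.40 CPM across Kmt2d+/+ clones 1, 2 and 3 and at 14.7 and 6.01 CPM in Kmt2d-/- clones 1 and 2 at day 0. By day 7 Igfbp4 had reached 75.6, 64.5 and 100.1 CPM and 201 and 351 CPM. Every day 7 value lay above every day 0 value of either genotype. The rise was 10.7-fold in Kmt2d+/+ (log2 fold change 3.41 ± 0.58, edgeR adjusted p = 0.0218) and 26.6-fold in Kmt2d-/- clones (4.73 ± 0.75, edgeR adjusted p = 0.0317). The interaction was 1.32 ± 0.84 (edgeR adjusted p = 1.00). At day 7 both mutant clones were above the wild-type clones (1.79 ± 0.58, edgeR adjusted p = 0.136), a difference that DESeq2 (adjusted p = 0.0229) and limma-voom (adjusted p = 0.0462) called, but not limma-voom with the clone as a random effect (adjusted p = 0.0989). The Kmt2d+/+ rise lost its call without clone 1 (3.14, edgeR adjusted p = 0.142) or clone 3 (2.94, 0.240), and was 4.41 without clone 2. The Kmt2d-/- rise lost it without Kmt2d+/+ clone 1 (0.0535) or clone 3 (0.0940), and without Kmt2d-/- clone 1 (5.86, 0.211) or clone 2 (3.77, 0.248).

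Igfbp5, a binding protein that attaches to extracellular matrix, was the most abundant member per kb of transcript in every library except that of Kmt2d+/+ clone 3 at day 0, where Irs1 and Igf1r were higher. At day 0 it stood at 198 and 114 CPM across Kmt2d+/+ clones 1 and 3, at 3667 CPM in clone 2, and at 20019 and 14730 CPM in Kmt2d-/- clones 1 and 2. At day 7 the 3 wild-type clones had reached 5497, 7527 and 5276 CPM, and the mutant clones stood at 18094 and 23413 CPM. Both mutant clones were above all wild-type clones at each day. The wild-type values at day 0 spanned a ratio of 32.2, while at day 7 their ratio was 1.43 and the mutant ratios were 1.36 and 1.29. In Kmt2d-/- clones Igfbp5 took 1.76% and 1.55% of all counts at day 0 and 1.69% and 2.34% at day 7. Per kb of transcript it was the gene of rank 7 in both mutant libraries at day 0 and of ranks 9 and 3 at day 7, against ranks 2235, 57 and 3794 in the wild-type clones at day 0 and 37, 19 and 24 at day 7.

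The genotype difference of Igfbp5 did not pass with all clones. It was 3.71 ± 1.20 (edgeR adjusted p = 0.132) at day 0 and 1.77 ± 1.14 (edgeR adjusted p = 0.439) at day 7. Without Kmt2d+/+ clone 2, whose day 0 level stood apart, it was 6.80 (edgeR adjusted p = 0.00554) and 1.95 (edgeR adjusted p = 0.0463). In that fit 6% and 1.79% of all genes passed. Of 14 alternatives with an adjusted p, this was the 1 that passed at each day. The wild-type day change was 2.20 ± 1.08 (edgeR adjusted p = 0.247), which passed with a term for each clone (3.98 ± 1.00, edgeR adjusted p = 0.0444) and without Kmt2d+/+ clone 2 (5.11, edgeR adjusted p = 0.0118). In Kmt2d-/- clones, already high at day 0, the day change was 0.26 ± 1.27 (edgeR adjusted p = 0.961).

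Igfbp6, which prefers IGF2 as its ligand, followed the clones. Its levels were 2.55, 51.1 and 9.57 CPM in Kmt2d+/+ and 85.9 and 12.4 CPM in Kmt2d-/- clones at day 0, and 6.89, 46.5 and 17.8 CPM against 35.8 and 15.3 CPM at day 7. The groups overlapped in all comparisons and none passed (edgeR adjusted p = 0.614 and 0.977 for genotype, 0.940 and 0.823 for day). Kmt2d+/+ clone 2 had the highest wild-type value at both days, and Kmt2d-/- clone 1 the higher mutant value.

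**Figure D2:**
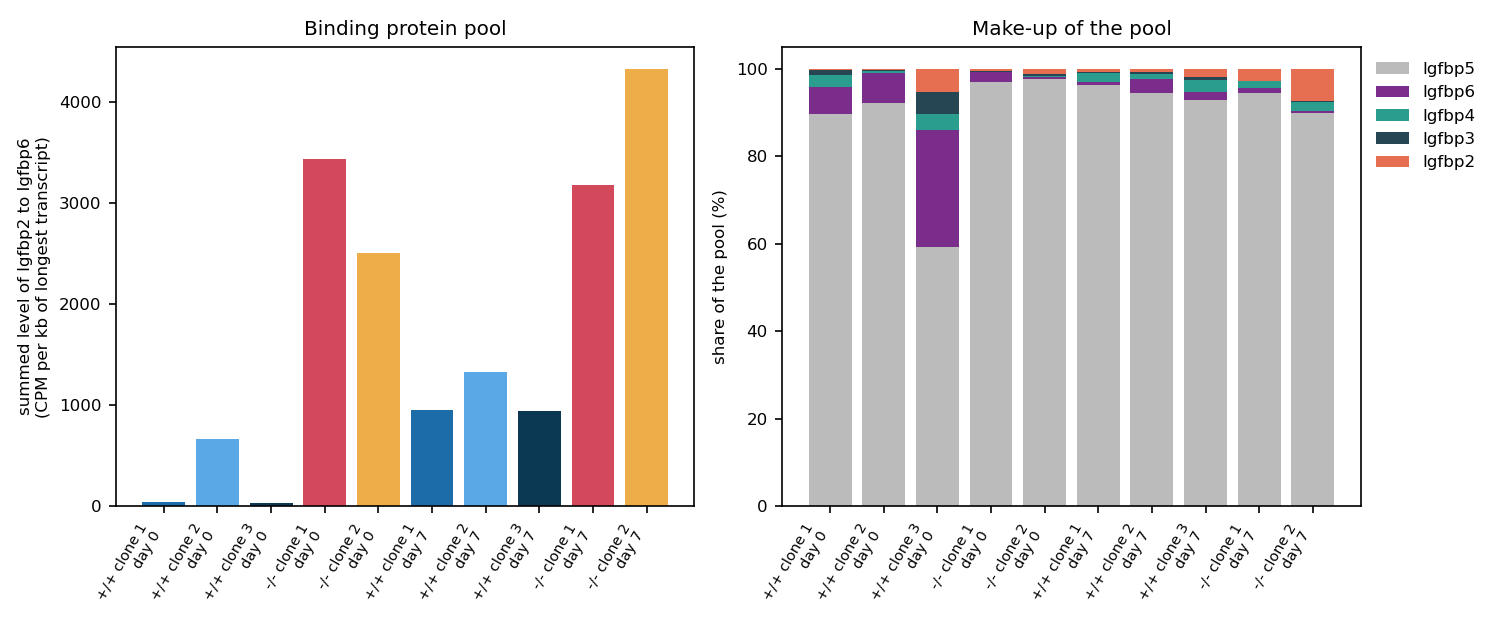
The summed level of Igfbp2 to Igfbp6 in each library (left, CPM per kb of longest transcript) and the share of each gene in that sum (right, %). The sum runs from 32.0 to 4333, all 4 Kmt2d-/- libraries exceed all 6 Kmt2d+/+ libraries, and Igfbp5 makes up the largest share everywhere.

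Summed per kb of longest transcript, the 5 binding protein genes stood at 36.7, 663 and 32.0 CPM per kb in Kmt2d+/+ clones 1, 2 and 3 at day 0 and at 950, 1327 and 945 at day 7. For Kmt2d-/- clones 1 and 2 the sum was 3438 and 2508 at day 0 and 3186 and 4333 at day 7. All 4 mutant libraries were above all 6 wild-type libraries. Igfbp5 made up 59.2% of the sum in Kmt2d+/+ clone 3 at day 0 and 89.7% to 97.8% in the other 9 libraries. In that exceptional library Igfbp6 took 26.9%. The share of Igfbp2 in the mutant clones was 0.552% and 1.25% at day 0 and 2.72% and 7.33% at day 7. That of Igfbp4 was 0.112% and 0.0625%, then 1.65% and 2.12%.

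Pappa, which encodes a protease that cuts IGFBP4 and IGFBP5, fell over the 7 days in both genotypes. At day 0 it stood at 126, 74.7 and 138 CPM across Kmt2d+/+ clones 1, 2 and 3 and at 121 and 26.8 CPM in Kmt2d-/- clones 1 and 2. At day 7 Pappa stood at 23.8, 11.0 and 16.9 CPM against 2.06 and 2.07 CPM, the latter from 107 and 113 counts. Every clone was lower at day 7, and at that day the mutant clones lay below all wild-type clones. The fall was 6.56-fold in Kmt2d+/+ (log2 fold change -2.71 ± 0.53, edgeR adjusted p = 0.0298) and 35.8-fold in Kmt2d-/- clones (-5.16 ± 0.74, edgeR adjusted p = 0.0232). The interaction was -2.45 ± 0.81 (edgeR adjusted p = 1.00). At day 7 the genotype difference was -3.06 ± 0.65 (edgeR adjusted p = 0.0521), and it passed with no filter on low counts (edgeR adjusted p = 0.0425), with a mean of at least 5 CPM (0.0493) and in DESeq2 (adjusted p = 5.13e-06). The Kmt2d+/+ fall lost its call without clone 1 (edgeR adjusted p = 0.152), clone 2 (0.0540) or clone 3 (0.275). The Kmt2d-/- fall lost it without Kmt2d+/+ clone 3 (0.0940), Kmt2d-/- clone 1 (-3.70, 0.210) or clone 2 (-5.88, 0.0590), and in limma-voom (0.0600).

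**Figure D3:**
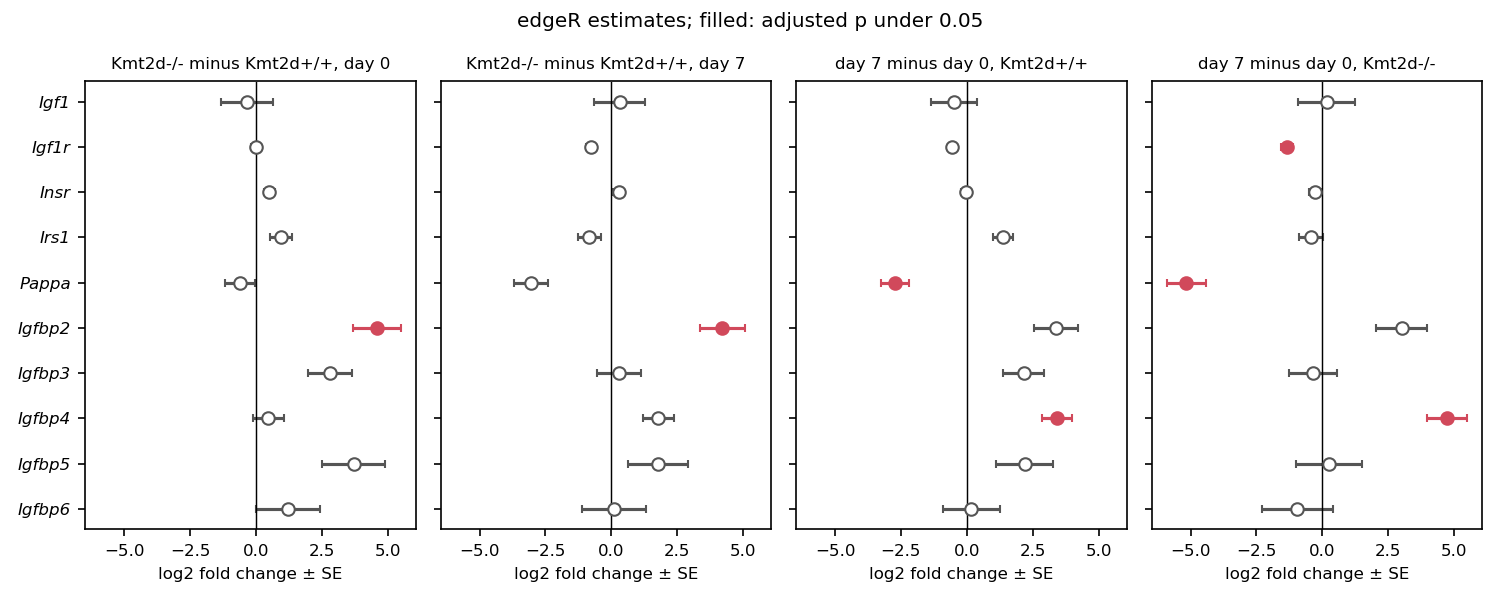
Log2 fold changes of the 10 genes with their SE in the 4 comparisons, from edgeR; filled red points passed at an adjusted p under 0.05. Igfbp2 is the 1 filled point in each genotype panel, and Igfbp4 and Pappa are filled in both day panels, with Igf1r added in the Kmt2d-/- clones.

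Igfbp4 and Pappa thus moved in opposite directions in every clone. From day 0 to day 7 the change of log2(CPM + 0.5) was 4.13, 2.14 and 4.36 for Igfbp4 and -2.38, -2.71 and -3.00 for Pappa in Kmt2d+/+ clones 1, 2 and 3. In Kmt2d-/- clones 1 and 2 it was 3.72 and 5.76 for Igfbp4 and -5.57 and -3.41 for Pappa. The larger mutant rise of Igfbp4 was in clone 2 and the larger mutant fall of Pappa in clone 1. Pappa2, another gene for a binding-protein protease, went from 14.7, 75.6 and 47.4 to 42.3, 201 and 210 CPM in Kmt2d+/+ clones. In Kmt2d-/- clones 1 and 2 Pappa2 went from 249 and 15.7 to 77.0 and 74.1 CPM. No comparison of Pappa2 passed.

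**Figure D4:**
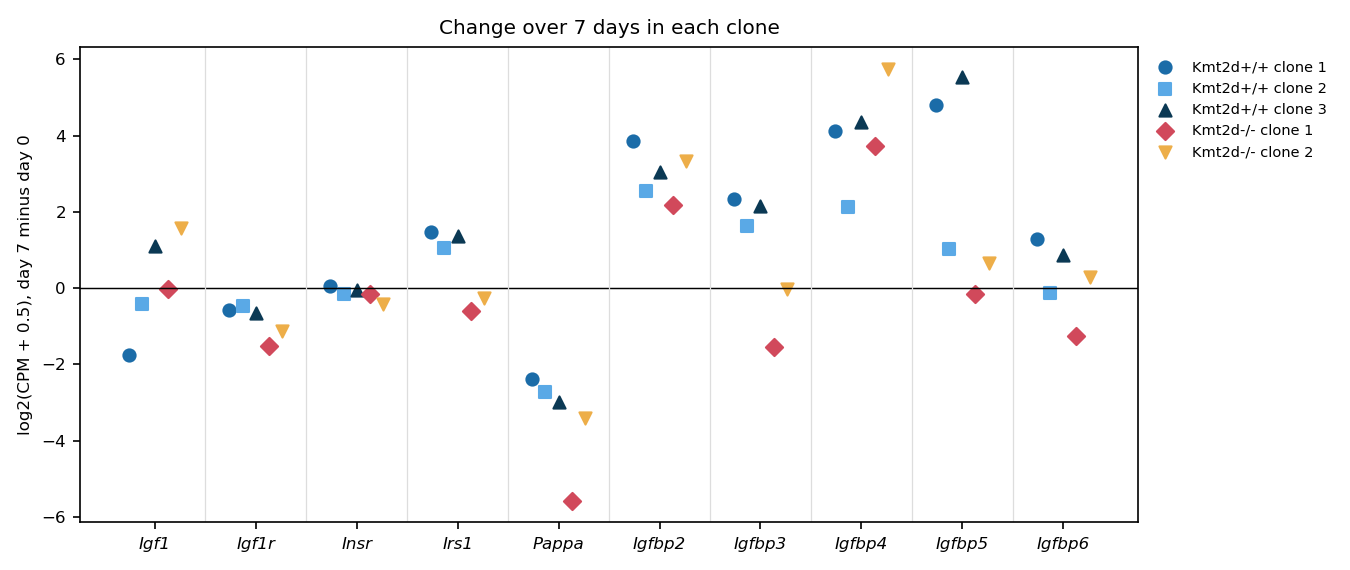
Change of each gene from day 0 to day 7 in each clone, as log2(CPM + 0.5) at day 7 minus day 0, 1 point per clone. Igfbp2 and Igfbp4 lie above 0 and Igf1r and Pappa below 0 in all 5 clones, while Irs1 and Igfbp3 lie above 0 in the Kmt2d+/+ and below 0 in the Kmt2d-/- clones.

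In the interaction 0 of the 10 members passed in edgeR, as did 0% of all genes. At an unadjusted p under 0.05 there were 3 members, Igf1r, Irs1 and Pappa, beside 3.67% of all genes. DESeq2 called 0 members and 27 genes. Groups without overlap gave a broader count. For genotype, 5 members were higher in both Kmt2d-/- clones at day 0 (Insr, Irs1, Igfbp2, Igfbp3 and Igfbp5), beside 18.6% of all genes. At day 7, 3 were higher (Igfbp2, Igfbp4 and Igfbp5), beside 17.9%, and 2 were lower (Igf1r and Pappa), beside 19.8%.

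Levels of different genes can be compared per kb of transcript. At day 0 the Kmt2d+/+ means were 221 ± 338 CPM per kb for Igfbp5 (SD, n = 3), 21.2 ± 2.76 for Igf1r, 20.2 ± 7.11 for Irs1, 18.9 ± 23.6 for Igfbp6, 11.6 ± 6.90 for Igf1 and 10.2 ± 3.05 for Pappa. Below them came Insr at 4.18 ± 0.844, Igfbp4 at 1.96 ± 1.53, Igfbp3 at 1.20 ± 0.680 and Igfbp2 at 1.02 ± 0.837 CPM per kb. Igf1r and Irs1 did not differ beyond their spread, nor did the last 3. The size of the Igfbp5 mean came from Kmt2d+/+ clone 2, at 610 CPM per kb against 32.9 and 18.9 in clones 1 and 3. In clone 1 Igfbp5 was also first, beside 25.4 for Irs1, while in clone 3 Irs1 (23.1) and Igf1r (21.3) were higher. In Kmt2d-/- clones at day 7 the order was another. Igfbp5 led at 3455 ± 626 CPM per kb (SD, n = 2), followed by Igfbp2 at 202 ± 163, Igfbp4 at 72.1 ± 27.7 and Irs1 at 29.0 ± 0.783. Pappa was last at 0.187 ± 0.000895. Igfbp2, last in Kmt2d+/+ clones at day 0, was second here, although its spread reached that of Igfbp4. Both genotype and day differ between these orders. In Kmt2d-/- clones at day 0 Igfbp2 stood at 25.1 ± 8.68 CPM per kb (SD, n = 2).

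Beyond the 10 members, 88 genes of the pathway were listed by role and 82 were tested; Ins1, Ins2, Igfbp1, Igfbpl1, Igfals and Irs3 were too low. Of the 82, 2 were lower in Kmt2d-/- clones at day 0, beside 0.976% of all genes, and 1 was higher at day 7, beside 0.905%. From day 0 to day 7, 4 rose and 2 fell in Kmt2d+/+ clones, beside 3.05% and 2.04% of all genes, and 1 rose and 1 fell in Kmt2d-/- clones, beside 0.672% and 0.595%. Their median log2 fold changes were 0.02, -0.03, 0.06 and -0.02. With a term for each clone 24 passed for day in Kmt2d+/+ clones, beside 18% of all genes, and 9 in Kmt2d-/- clones, beside 5.57%.

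Both genes lower in Kmt2d-/- clones at day 0 were regulators. Igf2bp1, which encodes an RNA-binding protein of the IGF2 messenger, stood at 65.6, 41.0 and 59.2 CPM in Kmt2d+/+ against 16.4 and 21.9 CPM in Kmt2d-/- clones (log2 fold change -1.53 ± 0.27, edgeR adjusted p = 0.0317). Socs1, a suppressor of cytokine and insulin signalling, stood at 11.1, 9.28 and 9.69 against 2.46 and 1.40 CPM (-2.37 ± 0.40, edgeR adjusted p = 0.0274). The Igf2bp1 groups, like those of Socs1, were apart. Leaving out Kmt2d+/+ clone 2 kept both calls, and leaving out any other clone ended them (edgeR adjusted p = 0.100 to 0.213 for Igf2bp1 and 0.0836 to 0.182 for Socs1). The Socs1 call was also lost in limma-voom with the clone as a random effect (adjusted p = 0.0742). A fit of only the groups compared ended both calls (edgeR adjusted p = 0.107 for Igf2bp1 and 0.0953 for Socs1).

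Akt1, a kinase downstream of IRS1, was higher in Kmt2d-/- clones at day 7, at 310 and 223 CPM against 126, 152 and 126 CPM (log2 fold change 0.98 ± 0.18, edgeR adjusted p = 0.0355). At day 0 the genotypes were also apart, at 272 and 240 CPM against 151, 158 and 143 CPM, a difference of Akt1 that did not pass. It lies on chromosome 12 from 112653821 to 112674884. The 373 tested genes of that chromosome from 40 Mb on had a median log2 genotype difference of 0.72 at day 0 and 0.67 at day 7, a shift of the whole region. What that shift contributes to the value of Akt1 was not tested. The Akt1 call ended in run 1 alone (edgeR adjusted p = 0.0513) and in a fit of only the groups compared (0.105). The call held without Kmt2d+/+ clone 2 (edgeR adjusted p = 0.0467) and ended without any other clone (0.0592 to 0.225).

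In Kmt2d+/+ clones 3 of the 10 FOXO-responsive genes passed as higher at day 7, beside 3.05% of all genes, and 0 passed as lower. Pdk4, a kinase that restrains pyruvate oxidation, was lower in all 3 clones, from 90.3, 55.1 and 134 to 32.8, 17.5 and 53.2 CPM (log2 fold change -1.43 ± 0.51, edgeR adjusted p = 0.128). Fbxo32, an E3 ubiquitin ligase subunit, went from 4.67, 3.27 and 2.63 to 16.8, 8.04 and 14.5 CPM (log2 fold change 1.90 ± 0.39, edgeR adjusted p = 0.0341). Ccng2, a cyclin linked to cell cycle arrest, went from 6.50, 13.7 and 5.58 to 40.4, 31.7 and 22.8 CPM (1.88 ± 0.37, edgeR adjusted p = 0.0295). Sesn1, a sestrin that restrains mTOR, went from 37.3, 36.9 and 38.2 to 97.1, 70.5 and 109 CPM (1.30 ± 0.23, edgeR adjusted p = 0.0242). For Fbxo32, Ccng2 and Sesn1 every day 7 value exceeded every day 0 value, as for 16.2% of all genes. Foxo3, a FOXO transcription factor, rose from 100.3, 89.0 and 86.4 to 193, 122 and 158 CPM (0.78 ± 0.18, edgeR adjusted p = 0.0451). In Kmt2d-/- clones 1 and 2 Foxo3 went from 83.5 and 103 to 172 and 168 CPM. Sesn1 went there from 24.5 and 43.6 to 70.6 and 69.1 CPM, and Ccng2 from 21.8 and 28.5 to 46.4 and 37.4 CPM. Fbxo32 went from 4.61 and 5.69 to 9.06 and 18.4 CPM, and Pdk4 from 29.7 and 31.2 to 3.62 and 11.1 CPM. These Kmt2d-/- day changes did not pass. Without Kmt2d+/+ clone 1 or clone 3 none of the Kmt2d+/+ calls of Fbxo32, Ccng2, Sesn1 and Foxo3 held (edgeR adjusted p = 0.158 to 0.351). A fit of only the groups compared ended those of Ccng2 (edgeR adjusted p = 0.0514) and Foxo3 (0.0678). Without Kmt2d-/- clone 1 or 2 those of Ccng2 (0.0576 and 0.0581, edgeR adjusted p) and Foxo3 (0.0765 and 0.0771) ended too, as did that of Foxo3 in run 2 alone (0.0873) and with no filter (0.0513).

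Among the wild-type day changes that fell was Adam12, a metalloprotease that can cut binding proteins, from 26.0, 8.96 and 15.2 to 1.37, 0.501 and 1.73 CPM (log2 fold change -3.80 ± 0.60, edgeR adjusted p = 0.0202). The other was Pik3cb, a catalytic subunit of PI3 kinase, from 79.3, 77.2 and 56.0 to 34.1, 39.9 and 24.9 CPM (-1.10 ± 0.24, edgeR adjusted p = 0.0382). In Kmt2d-/- clones 1 and 2 Pik3cb went from 58.9 and 38.4 to 17.2 and 19.4 CPM. Adam12 went there from 5.58 and 3.16 to 4.60 and 2.27 CPM, and neither Kmt2d-/- change passed. Both wild-type falls lost their call without Kmt2d+/+ clone 1 (0.142 for Adam12 and 0.229 for Pik3cb, edgeR adjusted p) or clone 3 (0.215 and 0.239). Pik3cb also lost it without Kmt2d+/+ clone 2 (0.0564), Kmt2d-/- clone 1 (0.0556) or clone 2 (0.0544).

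In Kmt2d-/- clones Irs2, the second main insulin receptor substrate, fell from 149 and 114 CPM to 25.8 and 26.9 CPM (log2 fold change -2.32 ± 0.40, edgeR adjusted p = 0.0394). Socs2, a suppressor of growth hormone signalling, rose from 7.03 and 4.88 to 21.5 and 29.7 CPM (2.10 ± 0.34, edgeR adjusted p = 0.0328). For Irs2 the Kmt2d+/+ clones gave 46.4, 107 and 52.1 CPM on day 0, then 27.8, 39.1 and 26.9 CPM. Those of Socs2 were 5.87, 8.40 and 8.72 and then 11.5, 12.1 and 17.3 CPM. The direction of both genes was the same in all 5 clones. The Socs2 call was lost in run 2 alone (edgeR adjusted p = 0.0635). A fit of only the groups compared ended both calls (edgeR adjusted p = 0.0755 for Irs2 and 0.138 for Socs2). The Irs2 call was kept without Kmt2d+/+ clone 2 and lost without any other clone (edgeR adjusted p = 0.0588 to 0.426), and that of Socs2 was lost without any 1 of the 5 (0.0508 to 0.307).

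**Figure D5:**
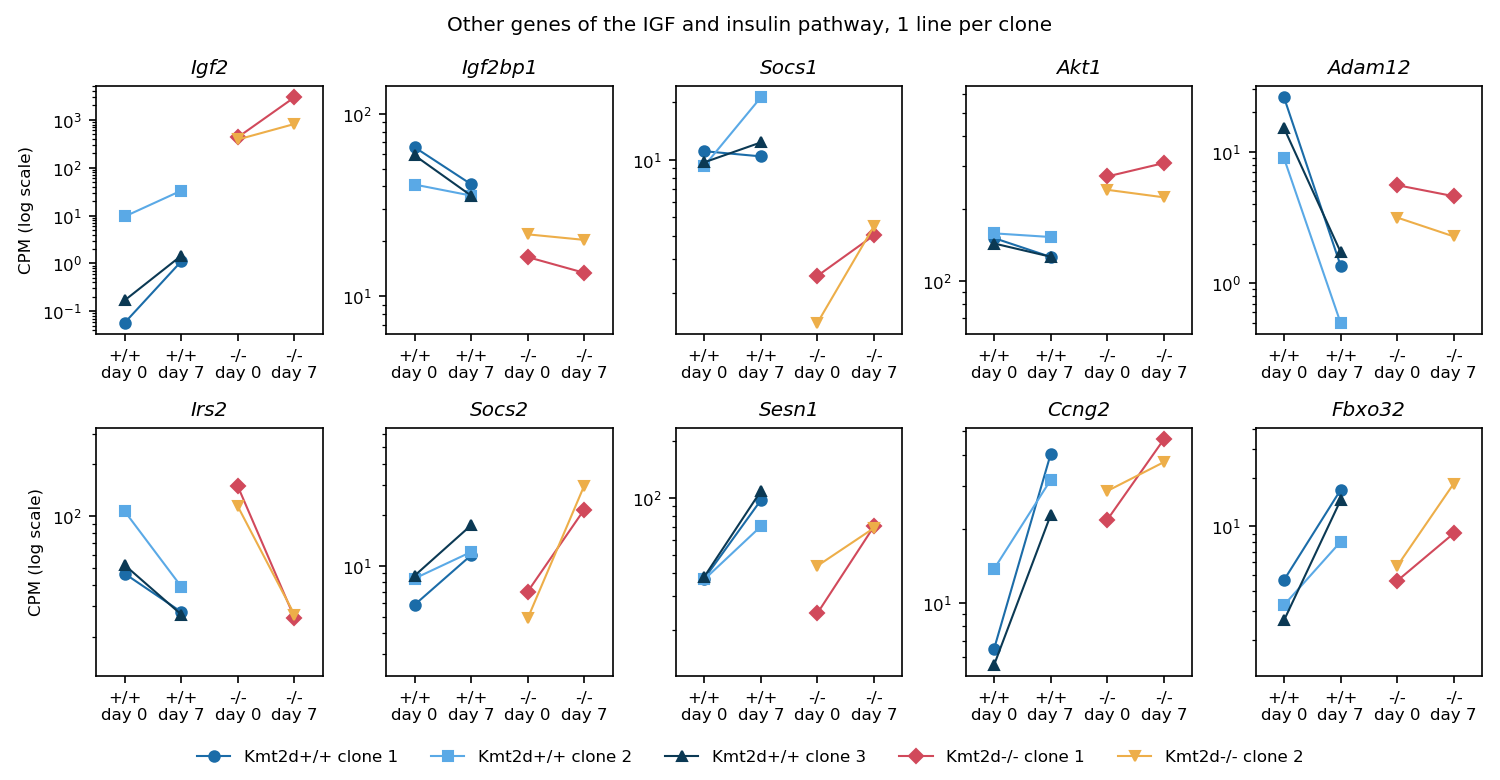
Levels of 10 other genes of the IGF and insulin pathway in each clone (CPM, log axis), with a line joining day 0 to day 7 of the same clone. Igf2 is higher and Igf2bp1 and Socs1 are lower in both Kmt2d-/- clones than in the Kmt2d+/+ clones at both days, and Sesn1, Ccng2 and Fbxo32 lie higher at day 7 in every clone.

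In 4 roles no gene passed in any comparison. Besides Igf2, the most abundant tested genes of these roles were Lrp1, an endocytic receptor that binds IGFBP3, at 599 to 1875 CPM, Igfbp7, at 3.60 to 61.5 CPM, and Jak2, the kinase of the growth hormone receptor, at 48.5 to 89.3 CPM. Among Kmt2d+/+ clones Igfbp7 was highest in clone 2, and among Kmt2d-/- clones in clone 1, at both days. In roles that had a passing gene in some comparisons and none in others, abundant genes were Mmp2 (227 to 870 CPM), Ptpn11 (317 to 611 CPM) and Txnip (49.6 to 147 CPM).

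Over the 10 libraries the genes closest in pattern to each passing member were found by Pearson r of log2(CPM + 1) among 10488 genes. The libraries share clones and days, so r is a description. For Igf1r they were Pappa (0.978), Man2a1 (0.972) and Plxna1 (0.961), so that the closest gene of all those searched was another member of the axis. For Pappa they were Plekho2 (0.983), Gdnf (0.983) and Man2a1 (0.979). For Igfbp2 they were Dusp22 (0.981) and Glmp (0.976), and for Igfbp4 they were Fbxl2 (0.979), Itga10 (0.976) and Cmya5 (0.976).

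The nearest tested genes on each side of the passing members and of Igfbp5 included 2 genes outside the axis with calls of their own, Tns4 and Rufy4. Tns4, which encodes a tensin and follows Igfbp4, rose by day 7 in Kmt2d+/+ (log2 fold change 4.64 ± 0.56, edgeR adjusted p = 0.00927) and in Kmt2d-/- clones (3.75 ± 0.68, edgeR adjusted p = 0.0439). Rufy4, the neighbour of Igfbp5 away from Igfbp2, rose by day 7 in Kmt2d+/+ clones (5.23 ± 1.05, edgeR adjusted p = 0.0326), and its change in Kmt2d-/- clones was 3.97 ± 1.25 (edgeR adjusted p = 0.171). Top2a on the other side of Igfbp4 had day changes of -0.10 and -0.04. Rpl37a, the neighbour of Igfbp2 away from Igfbp5, had genotype differences of -0.05 at day 0 and 0.24 at day 7. The 56 tested genes within 5 Mb of Igfbp2 had median genotype differences of 0.04 and 0.06, beside 4.59 and 4.21 for Igfbp2 itself. Around Igf1r (34 genes), Igfbp4 (229 genes) and Pappa (33 genes) the medians of the 4 comparisons lay between -0.27 and 0.26.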

How the data were processed

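The authors deposited estimated counts per gene, without normalization as far as the values show, and only 0.351% of the nonzero ones lay within 0.001 of a whole number. The authors, per the submitters' processing notes, worked with the GRCm38 build and with Salmon, limma, edgeR and DESeq2. Versions, annotation and any use of strand were not given in the labels, so reads of overlapping genes cannot be told apart. Both flow-cell runs of a library (r = 0.9745 to 0.9843 across genes) were summed and rounded, which gave 35792773 to 66237188 counts. No column was left unmatched. Symbols came from GENCODE vM21.

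All 10 libraries entered one edgeR 4.0.16 model in R 4.3.3 with 4 group means, with filterByExpr, TMM scaling and a quasi-likelihood F test on 6 residual degrees of freedom. This gave a common biological coefficient of variation of 0.385. CPM values use the TMM-scaled library size. The pipeline was also run on simulated counts, drawn for each library without a clone effect. That run cannot show how the tests behave when libraries share a clone. Alternatives were other scalings and filters, limma-voom (limma 3.58.1), also with the clone as a random effect, DESeq2 1.42.0, a term per clone, fits of single runs, fits of the compared groups alone, and leaving out single clones. Regional medians were added after the data were seen. Day 0 and day 7 libraries of a clone come from the same line, which pairs them: their deviations from the group means correlated with r = 0.394, 0.594 and 0.542 in Kmt2d+/+ clones 1, 2 and 3 and 0.508 in the Kmt2d-/- clones.

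The members, gene lists and naming rule were chosen with earlier results of these data known. The rule names the 10 members, up to 8 passing pathway genes per comparison by size, the most abundant gene of a role without one, the 3 genes most like each passing member (mean of at least 5 CPM), and its nearest tested genes. Igfbp5 was treated likewise for neighbours after its values were seen. Some genes that the rule would name are not reported here.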

Additional observations from a re-analysis of the deposited data

Results flagged for a closer look

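Irs1 was higher at day 7 than at day 0 in all 3 Kmt2d+/+ clones and lower in both Kmt2d-/- clones, so the day changes of the genotypes pointed in opposite directions. Their difference was -1.79 on the log2 scale, and the interaction test did not pass (edgeR adjusted p = 1.00, and 0.196 with a term for each clone).

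Igfbp3 had the same pattern, with a difference of -2.51 (edgeR adjusted p = 1.00, and 0.354 with a term for each clone). The change in Kmt2d-/- clone 2 was small, from 28.3 to 27.9 CPM. Among all tested genes 2.75% were higher in every Kmt2d+/+ and lower in every Kmt2d-/- clone.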

How the results depend on the processing

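Of the 50 tests of the 10 genes, 7 passed, and over their 105 alternatives all 105 kept the direction and 70 kept the call. Over all tests, 638 of 735 alternatives kept direction and side of the threshold, and 36 turned the direction, of which 0 passed in either fit. With clones left out the number of IGF axis genes that passed ran from 0 to 1 for genotype at day 0, 0 to 2 at day 7, 0 to 3 for day in Kmt2d+/+ and 0 to 3 in Kmt2d-/- clones. The number of all genes that passed ran from 10 to 912, 10 to 272, 0 to 862 and 0 to 183 in the same order, against 332, 290, 786 and 196 with all clones. In all 4 the high end came without Kmt2d+/+ clone 2. In the day comparisons 0 genes passed without Kmt2d+/+ clone 1 or 3 for day in Kmt2d+/+ clones, and without Kmt2d+/+ clone 3 or Kmt2d-/- clone 1 for day in Kmt2d-/- clones.

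Other alternatives that moved a count of calls by over 1.5 times were these. For genotype at day 0 the counts were 9 genes and 0 members with only the groups compared, 193 and 0 with the clone as a random effect in limma-voom, 1632 and 2 in DESeq2, and 0 members in limma-voom. For genotype at day 7 they were 184 genes in run 2 alone, 55 genes and 0 members with only the groups compared, 533 and 2 in limma-voom, 442 genes with the clone as a random effect, 1605 and 4 in DESeq2, 0 members with upper-quartile scaling, and 2 members with no filter or a mean of at least 5 CPM. For day in Kmt2d+/+ clones they were 2789 genes and 7 members with the replicate block (a term for each clone) and 2280 and 6 in DESeq2. For day in Kmt2d-/- clones they were 0 genes and 0 members with only the groups compared, 862 genes with the replicate block, which gave 4 members, and 999 in DESeq2. In the interaction DESeq2 called 27 genes. The members' calls that the block added are named with it in the results, and it ended none of the members' day calls. The block cannot be fitted to the genotype differences, since each clone has a single genotype. It therefore did not test the genotype calls of Igfbp2. Fewer libraries and residual degrees of freedom enter the fits of only the groups compared and without a clone. The causes of all these shifts were not tested.

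Directions turned only in tests that did not pass. The day 0 genotype difference of Igf1r, 0.01, was -0.011 with DESeq2 size factors, with genes of 5 CPM or more, with only the groups compared and in DESeq2, -0.014 without a filter, -0.019 in run 2 alone, -0.0015 with upper-quartile scaling, -0.0044 in limma-voom and -0.0045 there with the clone as a random effect, and -0.26 to 0.24 without a clone. At day 7 limma-voom gave -0.023 for Igf1 and -0.20 for Igfbp3, and with the clone as a random effect -0.021 and -0.21. The day change of Insr in Kmt2d+/+ clones was 0.020 in run 2 alone and -0.10 to 0.022 without a clone. Leaving out a clone gave these other ranges across 0. For Igf1 they were -3.30 to 0.57 and -1.17 to 1.03 for genotype, -1.14 to 0.27 and -0.029 to 1.64 for day and -0.11 to 2.13 for the interaction. For Igfbp6 they were -0.76 to 3.01 and -0.64 to 1.05, -0.028 to 1.02 and -1.27 to 0.30, and -1.96 to 0.13. Igfbp3 ranged from -1.74 to 1.10 for genotype at day 7, Igfbp4 from -0.32 to 1.33 and Pappa from -2.08 to 0.11 at day 0, and Igfbp5 from -0.15 to 0.66 for day in Kmt2d-/- clones. The share of Igfbp5 among the binding proteins was 85.0% to 99.4% when not divided by length. DESeq2 returned no adjusted p for Igfbp5. Depth limits the genes with few counts, such as Igfbp2 in Kmt2d+/+ clone 1 at day 0 with 4 counts.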
